A study of Mus musculus with 6 samples.

Results

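The genes described here are 23 immediate early genes and 13 heat shock genes, 36 of the 27378 gene IDs in the deposited count table. They were taken by name from both gene families, by a rule that uses no measured value but was written with earlier results of these data known. All 36 were found. Counts of unique molecular identifiers (UMIs, each marking 1 captured RNA molecule) were summed per cell class and library and expressed as CPM, the count scaled to a common total per class and library. The early and heat shock genes were scored apart, each score being the mean of log2(CPM + 1) over all genes of the list. Libraries inside a group were compared as well as the 3 groups.

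The study profiled immune cells of the mouse brain, sorted for the pan-leukocyte surface protein CD45, with 10x 3' v3 chemistry. There were 2 libraries from healthy brain (Trp53 wt, Rbpj wt), 2 from control tumours (Trp53 ko, Rbpj wt) and 2 from Rbpj-/- tumours (Trp53 ko, Rbpj ko). The tumours were gliomas at an early stage, dissected by the GFP of the Rosa-CAG::GFP Cre reporter, and both tumour groups share the Trp53 loss. According to the design text, material was pooled (9 brains for healthy, 15 tumours for control and 9 for Rbpj-/-), while the protocol describes 1 mouse per well. The driver of Cre, the animals in each library and the dissociation conditions are not given in the sources used here. P-values therefore rest on library-to-library spread only, part of which may be technical.

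Immediate early genes are transcribed within minutes of a stimulus from factors already present in the cell, without new protein synthesis. Fos and Jun proteins pair to form the AP-1 transcription factor, Egr and Nr4a genes encode further transcription factors, and Dusp1, Dusp2 and Zfp36 encode brakes on the kinases and messenger RNAs of the response. Heat shock genes encode chaperones that hold or refold proteins; most are switched on by the factor HSF1 when unfolded protein accumulates, and Hspa5 by the unfolded protein response of the endoplasmic reticulum. Both programmes are known to be induced in microglia and macrophages when brain tissue is dissociated and sorted.

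Total UMIs per library ran from 17430763 to 55229031, and 510 to 6453 cells per library were kept. Microglia-like cells numbered 4630 and 1617 in healthy 1 and 2, 219 and 160 in control 1 and 2, and 978 and 475 in Rbpj-/- 1 and 2. Macrophage-like cells, which join border and monocyte-derived macrophages, numbered 88 to 1037 per library, and T-like cells 49 to 192 in the 4 tumour libraries. All 10 microglia markers, among them P2ry12, Tmem119 and Sall1, were detected in the microglia-like cells of every library, summing to 13514 to 22470 CPM. In macrophage-like cells the monocyte markers ran from 442 to 5041 CPM and the border markers from 2140 to 10641 CPM. The microglia markers in the same sums stood at 10211 and 4809 CPM in healthy 1 and 2, 2048 and 6840 CPM in control and 5754 and 4401 CPM in Rbpj-/- tumours, with 9 or 10 of 10 detected. The sort also held endothelial or mural-like and oligodendrocyte-like cells (103 and 61 in healthy 1). Cells left without a class made up 6.9% to 19.2% of each library. Before filtering, 119 barcode sequences occurred in more than 1 library, and 256 barcodes were removed as copies of a larger one.

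The early score, which weights every gene alike, was on average higher in control tumours than in healthy brain, but the 2 libraries of a group lay as far apart as the groups did in most comparisons. In microglia-like cells the early score was 8.54 and 8.01 in healthy 1 and 2, 9.27 and 9.15 in control 1 and 2, and 9.51 and 7.88 in Rbpj-/- 1 and 2. The control libraries lay above both healthy libraries, whereas the Rbpj-/- libraries held the highest and the lowest score of all 6. As a share of all UMIs, which the most abundant genes set, the order was another: 4.44% and 2.70% in healthy 1 and 2, 3.42% and 3.34% in control, and 3.17% and 1.54% in Rbpj-/- tumours. The control shares lay between the healthy ones. Fitted log2 differences of control from healthy were above 0 for 16 of 23 early genes, with a median of 0.25 (-0.01 over all genes). The mean score difference was 0.94 between control (9.21 ± 0.08, SD, n = 2) and healthy (8.27 ± 0.37) on the log2 scale. It was 0.42 between Rbpj-/- (8.70 ± 1.15) and healthy, against a gap of 1.62 between the 2 Rbpj-/- libraries. Without Rbpj-/- 1 the latter difference was -0.39, and without Rbpj-/- 2 it was 1.23. The difference of Rbpj-/- from control was -0.52, and it turned to 0.30 without Rbpj-/- 2.

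The heat shock score ordered the libraries differently and set healthy 1 apart. In microglia-like cells it was 6.96 and 8.79 in healthy 1 and 2, 8.54 and 9.14 in control 1 and 2, and 8.14 and 8.29 in Rbpj-/- 1 and 2. Healthy 2 lay above both Rbpj-/- libraries and above control 1, so that only healthy 1 stood below all tumour libraries. The difference of control from healthy, 0.97, was smaller than the gap of -1.83 between the healthy libraries, and it was 0.05 without healthy 1 and 1.88 without healthy 2. The Rbpj-/- difference from healthy was 0.34 and became -0.58 without healthy 1. Both Rbpj-/- libraries lay below both control libraries, by a mean of -0.63, which ran from -0.93 without control 1 to -0.32 without control 2. A library split that the labels do not name, given in the closing section, also parts the tumour groups. Their difference cannot be told apart from it.

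**Figure D1:**
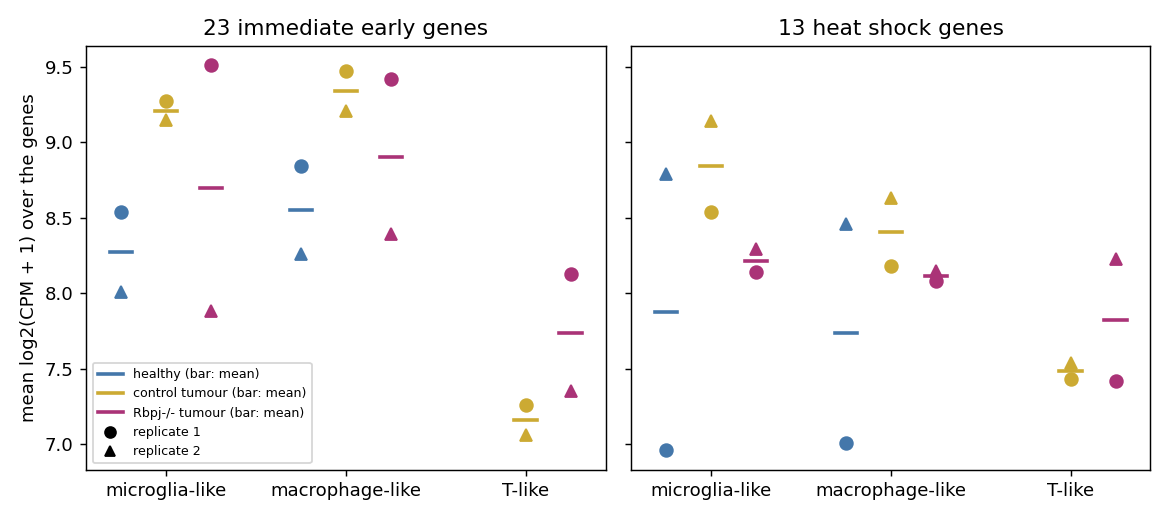
Early score (left) and heat shock score (right), each the mean log2(CPM + 1) over the genes of the list, for each library and cell class; circles are replicate 1, triangles replicate 2 and bars group means (n = 2). In microglia-like cells the Rbpj-/- libraries span 7.88 to 9.51 for the early genes, and healthy 1 is the lowest library for the heat shock genes at 6.96.

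Among the early genes, the AP-1 genes Fos and Fosb differed widely between libraries of 1 group. Fos in microglia-like cells stood at 5972 and 1817 CPM in healthy 1 and 2, 3494 and 3756 CPM in control 1 and 2, and 3248 and 1204 CPM in Rbpj-/- 1 and 2. Replicate 1 was about as far above replicate 2 in healthy brain (log2 gap 1.72) as in Rbpj-/- tumours (1.43), while the control libraries lay together, between the healthy libraries and above both Rbpj-/- libraries. Fosb, a partner of Jun like Fos, gave 761 and 144 CPM in healthy 1 and 2, 360 and 404 CPM in control, and 242 and 46.7 CPM in Rbpj-/- 1 and 2. Its gaps were 2.40 in healthy brain, the largest of any early gene there, and 2.35 in Rbpj-/- tumours. Jun was highest in healthy brain, at 9638 and 6789 CPM, against 5213 and 6561 CPM in control and 5175 and 3903 CPM in Rbpj-/- tumours. Healthy 1 and 2 were both above all 4 tumour libraries, and Jun fell by 0.86 ± 0.25 (log2, SE) in Rbpj-/- tumours relative to healthy brain (adjusted p = 0.0445, edgeR). Jund, the family member that most cells keep expressed, was at 5387, 2995, 3244, 3507, 2790 and 1885 CPM in the same library order. Its difference of -0.84 between Rbpj-/- and healthy did not pass the test (adjusted p = 0.0969, edgeR).

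The promoters of 30 of the 36 genes were found in RefSeq (GRCm38.p6), as windows of 300 bases from 250 before to 50 after the annotated start. Those of Fos, Dusp1 and Nr4a2 are shown because these genes carried either the library gaps (Fos, Dusp1) or a tested group difference (Nr4a2). They lie at chr12:85473640-85473939 (plus strand), chr17:26508423-26508722 (minus strand) and chr2:57123954-57124253 (minus strand), and capitals mark TGACG or its reverse complement, a short core motif bound by CREB and ATF factors.
Fos: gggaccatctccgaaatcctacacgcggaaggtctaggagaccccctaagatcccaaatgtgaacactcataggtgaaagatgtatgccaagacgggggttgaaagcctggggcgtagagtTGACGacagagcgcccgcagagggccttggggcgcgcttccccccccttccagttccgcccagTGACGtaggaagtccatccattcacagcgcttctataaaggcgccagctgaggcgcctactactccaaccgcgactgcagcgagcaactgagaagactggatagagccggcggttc
Dusp1: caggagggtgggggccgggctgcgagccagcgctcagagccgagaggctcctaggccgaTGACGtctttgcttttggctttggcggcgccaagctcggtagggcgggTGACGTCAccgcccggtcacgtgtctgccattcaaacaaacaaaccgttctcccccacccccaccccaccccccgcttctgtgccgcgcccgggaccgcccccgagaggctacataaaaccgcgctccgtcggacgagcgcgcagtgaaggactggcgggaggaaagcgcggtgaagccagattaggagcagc
Nr4a2: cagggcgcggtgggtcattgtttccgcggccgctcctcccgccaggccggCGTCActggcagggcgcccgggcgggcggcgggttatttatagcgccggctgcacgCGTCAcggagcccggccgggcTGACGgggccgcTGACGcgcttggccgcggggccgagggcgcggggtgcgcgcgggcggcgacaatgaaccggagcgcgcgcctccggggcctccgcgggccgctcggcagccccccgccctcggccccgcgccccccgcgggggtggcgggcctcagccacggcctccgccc
TGACG, searched on both strands, was found in 12 of 20 early promoters (60%) and in 5 of 10 heat shock promoters (50%), against 21.0% of 27025 promoters of all genes. The Fos window held 2, Dusp1 held 3 and Nr4a2 held 4. Jun, which had a tested group difference too and is not shown, held no TGACG in its window. The full palindrome TGACGTCA, of which TGACG is a part, was found in Dusp1 and Btg2 and in 1.88% of all promoters. An AP-1 site (TGANTCA) was found in 0 of 20 early promoters, against 7.93% of all promoters. A CArG box (CCWWWWWWGG, W being A or T) was found in 1, that of Zfp36, against 1.57%.

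Counted over the early genes, replicate 1 was more often the higher library in healthy and Rbpj-/- cells. In healthy microglia-like cells 8 of 23 early genes were at least 2-fold higher in replicate 1, against 1.54% of the 11007 genes tested. At that size 1 early gene was higher in replicate 2, against 2.17% of all genes. In Rbpj-/- microglia-like cells 18 of 23 were at least 2-fold higher in replicate 1 (2.91% of all genes) and 0 in replicate 2 (3.13%), and all 23 were higher in replicate 1 by some amount. In control tumours 1 early gene was 2-fold higher in replicate 1 (2.73%) and 1 in replicate 2 (3.79%). The median gap over the early genes was 0.64, 0.06 and 1.5 in healthy, control and Rbpj-/- cells, where that of all genes was 0.01 or closer to 0. With 2 libraries in a group, a gap inside a group has no test.

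**Figure D2:**
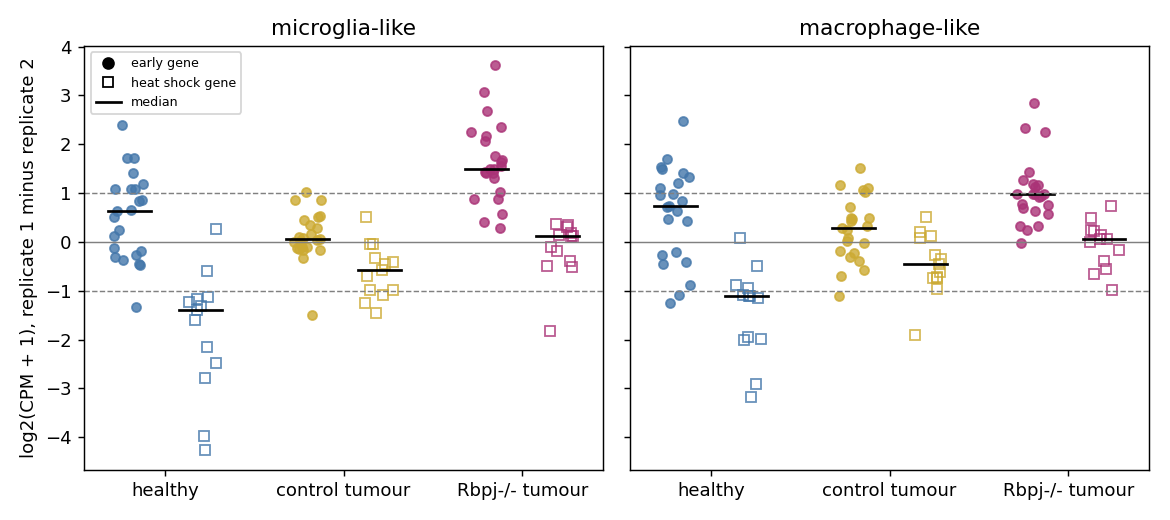
Gap between replicate 1 and replicate 2 of each group, as the difference in log2(CPM + 1), for 23 early genes (filled circles) and 13 heat shock genes (open squares); bars are medians and dashed lines mark a 2-fold gap. In Rbpj-/- microglia-like cells all 23 early genes lie above 0, and in healthy cells 12 of 13 heat shock genes lie below 0.

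Egr2, Egr3 and the Nr4a genes had another profile, with low levels in both healthy libraries. Egr3 in microglia-like cells was at 53.7 and 33.9 CPM in healthy 1 and 2, 402 and 294 CPM in control 1 and 2, and 556 and 44.4 CPM in Rbpj-/- 1 and 2. The last value fell among the healthy ones, and the Rbpj-/- gap of 3.62 was the largest of any early gene in these cells. Nr4a1 gave 31 and 42.8 CPM in healthy brain, 385 and 359 CPM in control and 675 and 105 CPM in Rbpj-/- tumours. All 4 tumour libraries were above both healthy ones, yet its log2 differences of 3.34 ± 1.07 and 3.41 ± 1.07 from healthy did not pass the test (adjusted p = 0.333 for control and 0.172 for Rbpj-/-, edgeR). Egr1 resembled Fos, at 1992 and 744 CPM in healthy 1 and 2, 1792 and 1599 CPM in control, and 1143 and 365 CPM in Rbpj-/- 1 and 2.

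Nr4a2, an orphan nuclear receptor, rested on few molecules in healthy microglia-like cells: 35 and 11 UMIs, or 1.12 and 0.937 CPM. It was at 12.1 and 35.8 CPM in control 1 and 2 and at 34.2 and 9.47 CPM in Rbpj-/- 1 and 2. Every tumour library lay above both healthy ones. Nr4a2 rose in Rbpj-/- tumours by 4.43 ± 0.88 on the log2 scale (adjusted p = 0.0478, edgeR), and the difference in control tumours was of like size, 4.47 ± 0.92, without passing (adjusted p = 0.112). Its paralogue Nr4a3 stood at 0.446 and 1.02 CPM (14 and 12 UMIs) in healthy brain, 14.5 and 7.59 CPM in control, and 37.5 and 3.59 CPM in Rbpj-/- 1 and 2. The groups did not overlap with healthy, but the differences missed the threshold (adjusted p = 0.350 and 0.117, edgeR). Dusp2, a nuclear phosphatase of ERK kinases, was at 13.4 and 14.7 CPM in healthy brain, 155 and 75.9 CPM in control and 284 and 59.1 CPM in Rbpj-/- tumours. It too was above healthy in all 4 tumour libraries and missed the threshold (adjusted p = 0.331 and 0.134, edgeR).

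In all, the edgeR test called 2 of 36 members between Rbpj-/- and healthy microglia-like cells, Nr4a2 upward and Jun downward, where 10.5% of all genes tested were called. Between control and healthy it called 0 of 36 (2.89% of all genes). There, 4 early and 3 heat shock members had an unadjusted p under 0.05, and DESeq2 called 4. Between Rbpj-/- and control it called 0 of 36 (0.0545% of all genes), with 2 early and 1 heat shock member at an unadjusted p under 0.05 and 0 by DESeq2. Which members were called changed when single libraries were left out. Here and in later paragraphs, the share of all genes is not given for such fits, for DESeq2 or for unadjusted p. Those counts therefore cannot be read as particular to the members. In control against healthy, leaving out Rbpj-/- 1 or Rbpj-/- 2, which enter that contrast through the shared spread and scaling, gave 6 calls, Dusp2, Egr2, Egr3, Nr4a1, Nr4a2 and Nr4a3 in each case. Leaving out healthy 2 gave 7, all heat shock genes. In Rbpj-/- against healthy, the count was 8 without healthy 2, 7 without Rbpj-/- 1 and 7 without Rbpj-/- 2, and without either control library 1, Nr4a2. Without healthy 1 it was 2, Hsp90aa1 and Hspa8, and edgeR called neither Nr4a2 (4.59, adjusted p = 0.289) nor Jun (-0.57, adjusted p = 0.274). Nr4a2 was not called without healthy 2 either (4.36, adjusted p = 0.293), nor Jun without Rbpj-/- 2 (-0.67, adjusted p = 0.173, edgeR). The Nr4a2 difference was thus about as large without either healthy library. In Rbpj-/- against control, 5 early genes were called downward without Rbpj-/- 1, and Hsp90aa1 and Hspa8 downward without healthy 1 or healthy 2. The gap inside a group was larger than the group difference for 15 of 23 early genes in control against healthy, 17 in Rbpj-/- against healthy and 22 in Rbpj-/- against control. The like share over all genes was not counted, so these counts cannot be read as particular to the early genes.

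**Figure D3:**
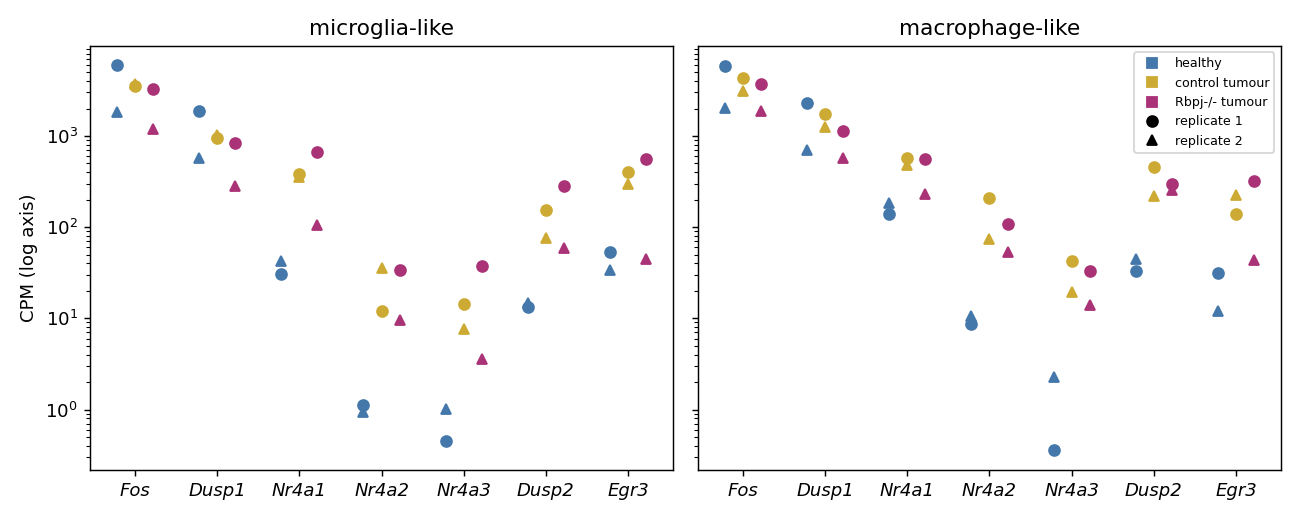
CPM (log axis) of 7 early genes in each library of microglia-like (left) and macrophage-like (right) cells; colours are groups, circles replicate 1 and triangles replicate 2. Fos and Dusp1 separate healthy 1 from healthy 2, whereas Nr4a1, Nr4a2, Nr4a3 and Dusp2 are lower in both healthy libraries than in every tumour library.

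Of the remaining early genes, some resembled Fos and others fitted neither profile. Dusp1, a phosphatase of stress-activated kinases, was at 1883 and 574 CPM in healthy 1 and 2, 942 and 1034 CPM in control and 827 and 283 CPM in Rbpj-/- 1 and 2. As for Fos, healthy 1 was the highest library and Rbpj-/- 2 the lowest. Healthy 1 was the highest of the 6 libraries for 9 early genes, and Rbpj-/- 1 for 10, whereas Rbpj-/- 2 was the lowest for 13. How often each library was highest or lowest over all genes was not counted. Atf3, which dimerises with Jun, was at 832 and 365 CPM in healthy brain, 2684 and 1846 CPM in control and 2046 and 456 CPM in Rbpj-/- tumours. Control 1 and 2 were above both healthy libraries, but the fitted difference of 1.92 ± 0.95 did not pass (adjusted p = 0.495, edgeR). Klf2, a transcription factor of quiescent cells, was at 1904 and 2166 CPM in healthy brain, 2918 and 2799 CPM in control and 2300 and 1259 CPM in Rbpj-/- tumours, with Rbpj-/- 2 the lowest library. Klf6, Ier5 and Btg2, a brake on cell division, ran from 1139 to 2052 CPM, 702 to 1482 CPM and 1505 to 3341 CPM over the 6 libraries.

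**Figure D4:**
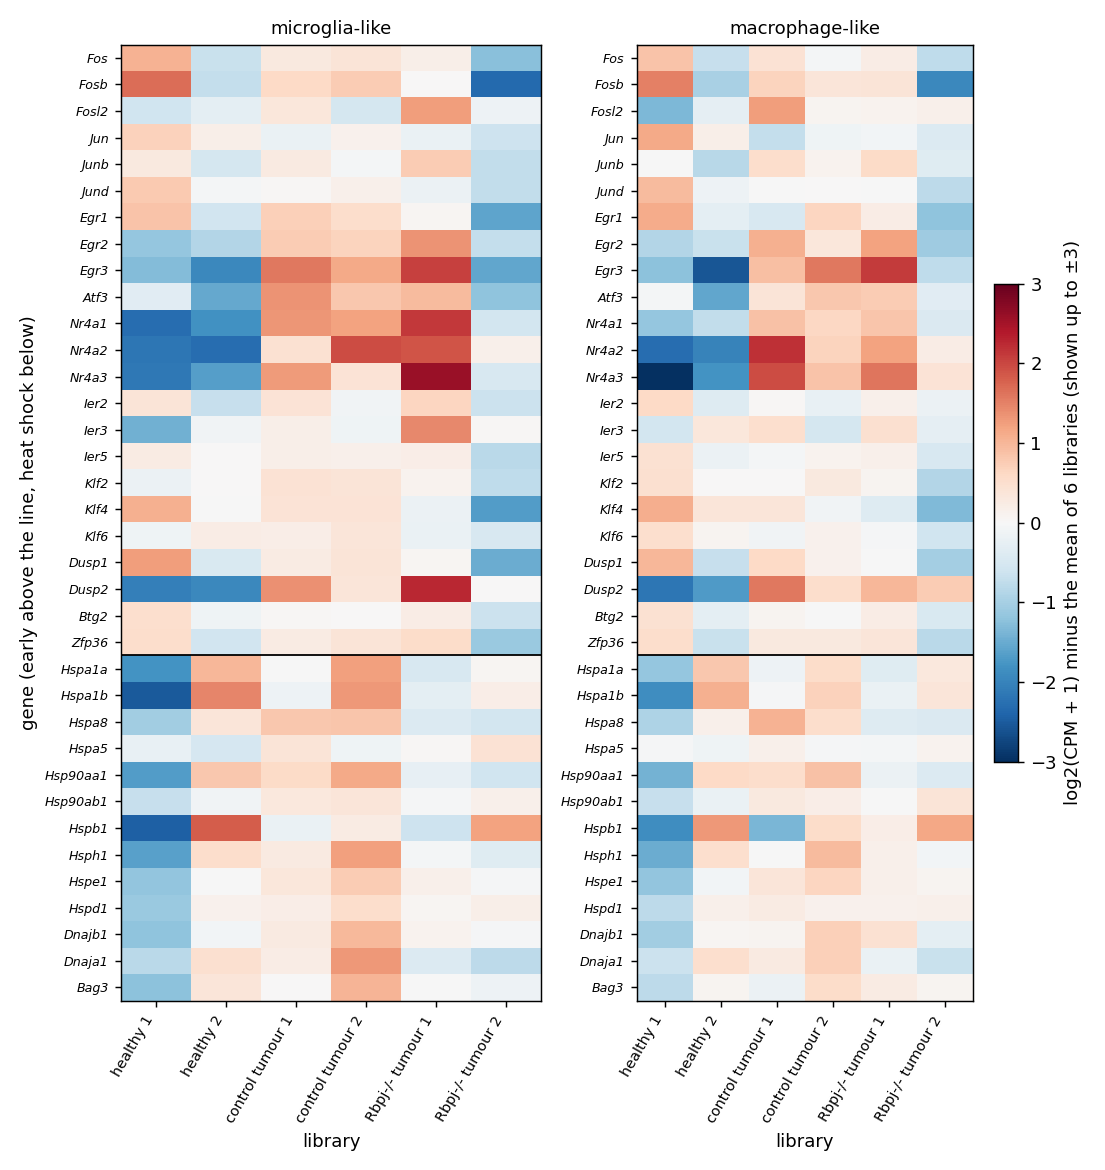
Level of each gene in each library, as log2(CPM + 1) minus that gene's mean over the 6 libraries (colour scale shown up to 3 in either direction), for microglia-like (left) and macrophage-like (right) cells. Healthy 1 is high for Fos, Fosb, Klf4 and Dusp1 and low for nearly all heat shock genes, and Rbpj-/- 2 is low for most early genes.

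Of the heat shock genes, the inducible HSP70 genes Hspa1a and Hspa1b had the widest span together with the small chaperone Hspb1. Hspa1a in microglia-like cells stood at 498 and 3426 CPM in healthy 1 and 2, 1705 and 4050 CPM in control 1 and 2, and 1241 and 1776 CPM in Rbpj-/- 1 and 2. Hspa1b gave 114 and 1811 CPM, 589 and 1622 CPM, and 536 and 755 CPM in the same order. For both, replicate 2 was higher in every group, and healthy 1 was the lowest library, so the groups overlapped. Hspb1 was at 17.5 and 355 CPM in healthy 1 and 2, 86.2 and 119 CPM in control and 64.5 and 231 CPM in Rbpj-/- tumours. Its healthy gap of -4.27 and that of Hspa1b, -3.98, were the widest of all members in these cells. In healthy brain 11 of 13 heat shock genes were at least 2-fold higher in replicate 2 (2.17% of all genes) and 0 in replicate 1 (1.54%), with a median gap of -1.39. In Rbpj-/- tumours 1 was higher in replicate 2 (3.13%).

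Hspa1a and Hspa1b are near-identical over much of their length, which bears on how far their counts can be told apart. Of all 31-base words in the Hspa1a transcripts 65.4% also occur in another gene, 63.8% in Hspa1b, but in the last 600 bases, where 3' libraries read, the share was 0%, and for Hspa1b 1.77%. For Hspa8 the share was 75.0% in the last 600 bases, for Hspe1 62.8%, for Hspb1 52.5%, for Hspd1 44.6%, for Dnaja1 36.8% and for Hsp90aa1 29.9%, mostly with predicted genes and pseudogenes, so these levels are uncertain. The promoters of Hspa1a, Hspa1b and Hsph1 are shown because all 3 genes differed over 4-fold between the healthy libraries in microglia-like cells. They lie on the minus strand at chr17:34972107-34972406, chr17:34959189-34959488 and chr5:149636287-149636586, and capitals mark GAANNTTC or TTCNNGAA, inverted pairs of the GAA block that HSF1 binds.
Hspa1a: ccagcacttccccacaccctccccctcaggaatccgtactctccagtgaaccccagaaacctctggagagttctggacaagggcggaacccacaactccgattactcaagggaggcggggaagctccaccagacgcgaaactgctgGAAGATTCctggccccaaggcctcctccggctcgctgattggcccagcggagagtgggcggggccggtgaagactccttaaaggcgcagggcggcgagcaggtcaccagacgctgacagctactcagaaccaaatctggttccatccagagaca
Hspa1b: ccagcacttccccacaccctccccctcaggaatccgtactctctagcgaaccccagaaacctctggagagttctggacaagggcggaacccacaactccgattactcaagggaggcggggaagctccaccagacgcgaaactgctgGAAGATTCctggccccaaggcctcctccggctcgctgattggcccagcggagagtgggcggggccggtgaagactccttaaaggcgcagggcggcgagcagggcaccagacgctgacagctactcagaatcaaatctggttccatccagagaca
Hsph1: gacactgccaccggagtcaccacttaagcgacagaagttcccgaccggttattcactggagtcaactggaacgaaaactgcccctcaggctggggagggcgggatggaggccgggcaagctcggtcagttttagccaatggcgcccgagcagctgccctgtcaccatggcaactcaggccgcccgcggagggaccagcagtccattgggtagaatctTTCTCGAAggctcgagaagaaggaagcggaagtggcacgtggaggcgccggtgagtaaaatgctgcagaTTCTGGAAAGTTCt
The Hspa1a and Hspa1b windows share 296 of 300 bases, and their marked pair begins 104 bases before the start. GAANNTTC, its own reverse complement, was found in 7 of 10 heat shock promoters (70.0%), those of Bag3, Dnaja1, Hspa1a, Hspa1b, Hspb1, Hspe1 and Hsph1. It was found in 2 of 20 early promoters, Fosl2 and Jun, and in 7.95% of all promoters. TTCNNGAA was found in Hspe1 and Hsph1 and in 8.4% of all promoters, and it can overlap GAANNTTC in a run of blocks. A run of 3 blocks (GAANNTTCNNGAA, either strand) was found in the same 2 genes and in 0.529% of all promoters.

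The other chaperones differed between the healthy libraries by less. Hsp90aa1, the inducible HSP90, was at 296 and 1649 CPM in healthy 1 and 2, 1398 and 2076 CPM in control, and 802 and 628 CPM in Rbpj-/- tumours. Hsp90ab1, its constitutive partner, was at 1250 and 1887 CPM, 2529 and 2599 CPM, and 1994 and 2269 CPM. Its tumour libraries were all above the healthy ones, without a call (log2 difference 0.71 ± 0.23 in control, adjusted p = 0.154, edgeR). Hspa5, the chaperone of the endoplasmic reticulum, was the exception to the order, at 1173 and 975 CPM, 1798 and 1265 CPM, and 1422 and 1867 CPM. It was the only heat shock gene for which healthy 1 was not the lowest library, and its tumour libraries were all above the healthy ones (0.61 ± 0.24 in Rbpj-/-, adjusted p = 0.126, edgeR). Healthy 1 was lowest for the other 12 genes, and control 2 was highest for 10, again without a like count over all genes. The co-chaperones Dnajb1, Dnaja1 and Bag3 and the mitochondrial pair Hspd1 and Hspe1 spanned 127 to 575, 94.4 to 419, 22.6 to 110, 111 to 346 and 144 to 555 CPM, with healthy 1 lowest and control 2 highest for each. Control tumours had 3 heat shock genes at least 2-fold higher in replicate 2 (3.79% of all genes) and 0 in replicate 1 (2.73%), and a median gap of -0.57.

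The leaving-out of healthy 2 touched these genes most: control against healthy 1 alone called Bag3, Dnajb1, Hsp90aa1, Hspa8, Hspd1, Hspe1 and Hsph1 upward, while without healthy 1 no member was called. The gap inside a group was larger than the group difference for 11 of 13 heat shock genes in control against healthy, with Hsp90ab1 and Dnajb1 the exceptions, and for 12 in Rbpj-/- against healthy, with Hspa5 the exception. In Rbpj-/- against control it was 8 of 13, with Hspa8, Hsp90aa1, Hsp90ab1, Hspe1 and Dnaja1 the exceptions. For these counts too the like share over all genes was not counted. Hspa8, the constitutive HSP70, was at 56.8, 151, 205, 212, 87.5 and 80.0 CPM in library order, and its difference of -1.31 ± 0.45 between the tumour groups was not called (adjusted p = 0.351, edgeR).

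Macrophage-like cells had a similar library profile, in sums that also carried microglia markers, highest in healthy 1 (10211 CPM), whose part was not tested. Their early scores were 8.84 and 8.26 in healthy 1 and 2, 9.47 and 9.21 in control 1 and 2, and 9.42 and 8.39 in Rbpj-/- 1 and 2. The control libraries were above both healthy ones (mean difference 0.79, and 0.50 without healthy 2), while Rbpj-/- 2 fell between the healthy libraries. Most early genes did not share the direction of the score difference: 11 of 23 fitted log2 differences between control and healthy were above 0, with a median of -0.01 (-0.02 over all genes). As a share of UMIs the early genes took 4.52% and 2.29% in healthy 1 and 2 against 2.54% and 2.53% in control, so the group averages had the opposite order there. The heat shock scores were 7.01 and 8.46, 8.18 and 8.63, and 8.08 and 8.15, with healthy 1 lowest again. Fos stood at 5821 and 2012 CPM in healthy 1 and 2, 4338 and 3086 CPM in control and 3744 and 1901 CPM in Rbpj-/- tumours, and Fosb at 692 and 124 CPM, 389 and 312 CPM, and 319 and 62.7 CPM. For both, healthy 1 was highest and Rbpj-/- 2 lowest. In healthy cells 8 of 23 early genes were at least 2-fold higher in replicate 1 (4.31% of the 11340 genes tested) and 2 in replicate 2 (3.97%), and 9 of 13 heat shock genes in replicate 2. In control cells 5 early genes were higher in replicate 1 (5.52%), with 1 early and 1 heat shock gene in replicate 2 (8.61%). In Rbpj-/- cells 8 early genes were higher in replicate 1 (3.46%) and 0 members in replicate 2 (2.82%).

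In these cells Nr4a2, Nr4a3 and Dusp2 rose in both tumour groups. Dusp2 was at 32.8 and 45.1 CPM in healthy 1 and 2, 454 and 218 CPM in control and 300 and 253 CPM in Rbpj-/- tumours. The tumour libraries lay well above both healthy ones, and Dusp2 rose by 3.12 ± 0.40 in control (adjusted p = 0.00505) and 2.84 ± 0.40 in Rbpj-/- tumours (adjusted p = 0.00639, edgeR). Nr4a2 was at 8.62 and 10.6 CPM, 211 and 73.5 CPM, and 107 and 53.7 CPM, a rise of 3.92 ± 0.62 (adjusted p = 0.0235) and 3.09 ± 0.60 (adjusted p = 0.0369, edgeR). Nr4a3 rested on 4 and 7 UMIs in healthy brain, 0.356 and 2.26 CPM, against 42.8 and 19.4 CPM in control and 33.0 and 14.0 CPM in Rbpj-/- tumours. It rose by 5.13 ± 0.91 (adjusted p = 0.0336) and 4.70 ± 0.90 (adjusted p = 0.0362, edgeR). Both tumour groups were set against the same healthy libraries, so these are not 2 independent results. These 3 were the members called out of 36 in each contrast, where 4.6% and 5.61% of all genes were called. Between Rbpj-/- and control edgeR called 0 of 36 members and 0% of all genes, with 2 heat shock members at an unadjusted p under 0.05 and 0 calls by DESeq2.

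Several of these calls were lost with fewer libraries or cells, mostly with folds of like size. Without healthy 1 none of the 3 was called in either contrast, Dusp2 reaching an adjusted p of 0.0584 in control and 0.0649 in Rbpj-/- tumours (edgeR). The log2 differences in control were then 2.89 for Dusp2, 3.74 for Nr4a2 and 3.79 for Nr4a3. Nr4a2 was not called without healthy 2 (adjusted p = 0.0878 and 0.126), nor Nr4a3 in control without control 1 (adjusted p = 0.178, edgeR). Against healthy, Rbpj-/- tumours kept only Dusp2 without Rbpj-/- 1, and without Rbpj-/- 2 the calls were Dusp2, Egr2, Egr3 and Nr4a1. Leaving out either Rbpj-/- library gave 6 calls in control against healthy. Within border macrophage-like clusters alone 0 members were called in control and only Jun, downward, in Rbpj-/- tumours (edgeR). Dusp2 was there at 2.63 in control and 2.23 in Rbpj-/- tumours (adjusted p = 0.248 and 0.268, edgeR). Nr4a2 was at 4.41 and 2.99 (adjusted p = 0.266 and 0.377) and Nr4a3 at 4.96 and 3.13 (adjusted p = 0.0504 and 0.15, edgeR). These clusters held 911 of 1037 and 269 of 322 macrophage-like cells in healthy 1 and 2. They held 60 of 201 and 35 of 88 in control 1 and 2, and 272 of 696 and 156 of 817 in Rbpj-/- 1 and 2. Monocyte markers summed to 442 and 1037 CPM in healthy 1 and 2 and to 5041, 1928, 1007 and 4183 CPM in the tumour libraries, with 10 of 10 detected in each. On library totals, Dusp2 was at 202 and 188 CPM in healthy 1 and 2 in cluster 9, led by Ace, Treml4 and Adgre4. It was at 5.96 and 25.3 CPM in cluster 0, led by Lyve1, Ccn1 and Cd163. The part of the class makeup in the Nr4a and Dusp2 rises, beyond the restriction to border clusters, was not tested.

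Other members of this class were given no call. Jun was at 8568 and 4389 CPM in healthy 1 and 2, 2383 and 3535 CPM in control and 3701 and 2942 CPM in Rbpj-/- tumours, all tumour libraries below both healthy ones (log2 difference -1.13 ± 0.44 in control, adjusted p = 0.191, edgeR). Junb, at 2945, 1647, 4268, 3198, 4433 and 2327 CPM in library order, overlapped between groups. Dusp1 was at 2300 and 708 CPM, 1736 and 1247 CPM, and 1130 and 567 CPM, and Egr3 at 31.5 and 11.9 CPM, 141 and 228 CPM, and 324 and 44.0 CPM. Fosl2, an AP-1 member, was at 26.1, 56.4, 164, 72.3, 73.7 and 75.1 CPM, healthy brain being lowest. Hspa1a was at 797 and 3088 CPM, 1582 and 2595 CPM, and 1393 and 2204 CPM, and Hspa1b at 207 and 1576 CPM, 732 and 1219 CPM, and 653 and 965 CPM. Replicate 2 was the higher library for both in each group, as in microglia-like cells. Hspb1 was at 12.9 and 125 CPM, 18.6 and 72.9 CPM, and 56.6 and 113 CPM, and Hsph1, an HSP110 co-chaperone, at 10.7 and 45.5 CPM, 31.4 and 61.9 CPM, and 35.5 and 30.1 CPM. Hsp90ab1 was at 1282, 1805, 2527, 2372, 2065 and 2726 CPM, Hspa5 at 1288, 1218, 1482, 1294, 1281 and 1428 CPM, and Dnajb1 at 139, 299, 303, 466, 394 and 235 CPM. Of these 3, Hsp90ab1 had all tumour libraries above both healthy ones, and Hspa5 varied least.

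The group differences were set between the 2 classes in a limma test of microglia-like minus macrophage-like levels per library. Of 36 members 0 were called in any of the 3 contrasts, as were 0% of 10546 genes, with 1 member at an unadjusted p under 0.05 in control against healthy, 3 in Rbpj-/- against healthy and 2 in Rbpj-/- against control. The largest such difference was that of Nr4a1, 1.62 in control and 1.68 in Rbpj-/- tumours against healthy (adjusted p = 0.246 and 0.372, limma).

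In T-like cells of the tumours the early score was 7.26 and 7.06 in control 1 and 2 and 8.13 and 7.35 in Rbpj-/- 1 and 2, the latter pair being higher by a mean of 0.58 against a gap of 0.79 between them. The heat shock scores, 7.43, 7.54, 7.42 and 8.23 in the same order, overlapped. Of the 35 members tested (Hspb1 did not pass the count filter) edgeR called 0, where 0.509% of 7273 genes were called. An unadjusted p under 0.05 was found for 10 early and 4 heat shock members, and DESeq2 called 1, Egr1. The shares of all genes for the unadjusted p and for DESeq2 are not given here. Egr1 was at 53 and 81.7 CPM in control and 243 and 163 CPM in Rbpj-/- tumours, and did not overlap (1.60 ± 0.31, adjusted p = 0.1, edgeR), though with mixed barcodes kept its difference was -0.96. Leaving out 1 library gave 3 calls without control 1, 4 without control 2, 2 without Rbpj-/- 1 and 0 without Rbpj-/- 2. Junb was at 1982, 1650, 3570 and 1712 CPM, Jund at 1798, 1744, 2206 and 1783 CPM, and Dusp2 at 456, 1005, 880 and 477 CPM. The 2 groups overlapped for Junb, Jund and Dusp2.

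Rbpj-/- 2 stood apart in T-like cells for Jun, Hspa1a, Hspa1b and Hspb1, while it was the lowest library for Hsph1, Dnaja1 and Bag3. Jun was at 172 and 171 CPM in control and 378 and 1473 CPM in Rbpj-/- 1 and 2. Hspa1a was at 116 and 241 CPM, then 223 and 1186 CPM, and Hspa1b at 89.3 and 159 CPM, then 147 and 804 CPM. Hspb1 was at 0 and 3 UMIs in control and 0 and 42 UMIs in Rbpj-/- 1 and 2. For these 4 genes Rbpj-/- 2 was the highest library by a wide margin. It was the lowest for Egr3, at 8.97, 15.4, 76.1 and 3.37 CPM, and for Nr4a1, at 256, 218, 462 and 87.6 CPM. Ier3, at 85.8, 20.2, 170 and 219 CPM, was higher in both Rbpj-/- libraries than in control (1.82 ± 0.59, adjusted p = 0.478, edgeR), but its difference was -0.85 when cells were clustered at resolution 1.5, a setting chosen after seeing the data. Atf3 was at 38.2, 13.7, 50.7 and 37.1 CPM. The chaperones Hsp90ab1 (4016, 2586, 3603 and 4021 CPM), Hspa5 (1058, 708, 961 and 949 CPM), Hsp90aa1 (1003, 812, 692 and 822 CPM) and Hspd1 (795, 406, 611 and 625 CPM) overlapped between groups. Markers of other cell types moved with the groups in these T-like sums. Microglia markers summed to 83.8, 145, 208 and 494 CPM (7 or 8 of 10 detected), with P2ry12 and P2ry13 at 0 in all 4 libraries. NK markers summed to 271, 599, 915 and 1328 CPM (4 to 6 of 8 detected, Klra8 and Klra4 at 0 in all 4). Mast or basophil markers summed to 1.17 and 0.809 CPM in control, with 2 and 1 of 7 detected, and to 479 and 334 CPM in Rbpj-/- tumours, with 5 of 7 detected in each. The part of these cells, or of their free RNA, in the early score, Egr1 and the chaperone values was not tested. In T-like cells 4 early genes were at least 2-fold higher in control 1 (4.4% of all genes) and 1 early and 2 heat shock genes in control 2 (3.55%). In Rbpj-/- cells 8 early genes were higher in replicate 1 (7.03%), and 1 early and 3 heat shock genes in replicate 2 (7.67%).

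The heat shock gap between the healthy libraries was found in every class with enough cells in both. On library totals the gap in the heat shock score, replicate 1 minus 2, was -1.86 in microglia-like, -1.43 in macrophage-like, -1.70 in dendritic-like, -1.55 in T-like and -2.75 in B-like cells. For B-like cells it rested on 41 and 66 cells, in which Hspa1a had 3 and 232 UMIs and Hspa1b 0 and 193. The healthy T-like sums rested on 30 and 20 cells and carried microglia markers at 12327 and 577 CPM, against 2429 and 4184 CPM of T markers, so the value for healthy 1 is not one of T cells alone. Dendritic-like cells carried microglia markers at 8966 and 3085 CPM in healthy 1 and 2, against 1225 and 1025 CPM of dendritic markers, so their gap too is not one of dendritic cells alone. B-like cells carried microglia markers at 451 and 546 CPM, with P2ry12 and P2ry13 at 0 in both. The early gap was 0.49 to 1.26 in the first 4 of these classes and -1.08 in B-like cells. In Rbpj-/- tumours the early gap was 1.58 in microglia-like, 1.11 in macrophage-like, 1.59 in dendritic-like, 0.78 in T-like and 0.45 in NK-like cells. The dendritic-like sums of Rbpj-/- 1 and 2 carried microglia markers at 4312 and 3064 CPM, against 2140 and 2496 CPM of dendritic markers. Their gap is therefore not one of dendritic cells alone. The heat shock gap in Rbpj-/- tumours was -0.82 in T-like and -0.88 in NK-like cells and within 0.19 of 0 in the other 3. In NK-like cells Jun was at 487 and 1637 CPM and Hspa1a at 193 and 1331 CPM in Rbpj-/- 1 and 2, the same order as in T-like cells.

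The gaps were also present inside most of the clusters that both libraries of a group shared. With at least 20 cells in both libraries, the early score was higher in replicate 1 in 4 of 5 healthy microglia-like clusters, 4 of 4 healthy macrophage-like clusters, and 4 of 4 and 5 of 5 Rbpj-/- clusters of those classes. The exception was cluster 4, led by Gdf15, Rcan1 and Ccl3, at -0.14. Microglia-like clusters 1, 2 and 5 held 786, 1141 and 1160 cells of healthy 1, out of 4630, and under 20 each of healthy 2. The healthy comparison therefore leaves out most microglia-like cells of healthy 1. The heat shock score was higher in replicate 2 in 5 of 5 and 4 of 4 healthy clusters and in 4 of 4 and 3 of 5 Rbpj-/- clusters. In cluster 6 of healthy brain (360 and 131 cells) Fos was at 4643 and 1482 CPM and Hspa1a at 395 and 2177 CPM. In cluster 29, led by Ccl4, Tnf and Ccl3, Egr3 was at 669 and 138 CPM in Rbpj-/- 1 and 2. The makeup of the libraries differed as well: cluster 13 held 84.2% of the microglia-like cells of healthy 2, cluster 29 held 39.3%, 40.6% and 64.2% of those of control 1, control 2 and Rbpj-/- 1, and cluster 11, led by Spp1, Apoc1 and Lpl, held 51.6% of those of Rbpj-/- 2. On library totals, the Rbpj-/- gap in the early score was 0.61 to 0.87 within the 4 microglia-like clusters, against 1.58 over the class. Some of these cluster values rested on few cells. Cluster 13 held 34 and 21 cells of Rbpj-/- 1 and 2, and microglia-like clusters 3, 4 and 8 held 24, 25 and 25 of healthy 2. Without cluster 29 the early difference of control from healthy was 0.60 in place of 0.94, and that of Rbpj-/- from healthy -0.27 in place of 0.42.

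**Figure D5:**
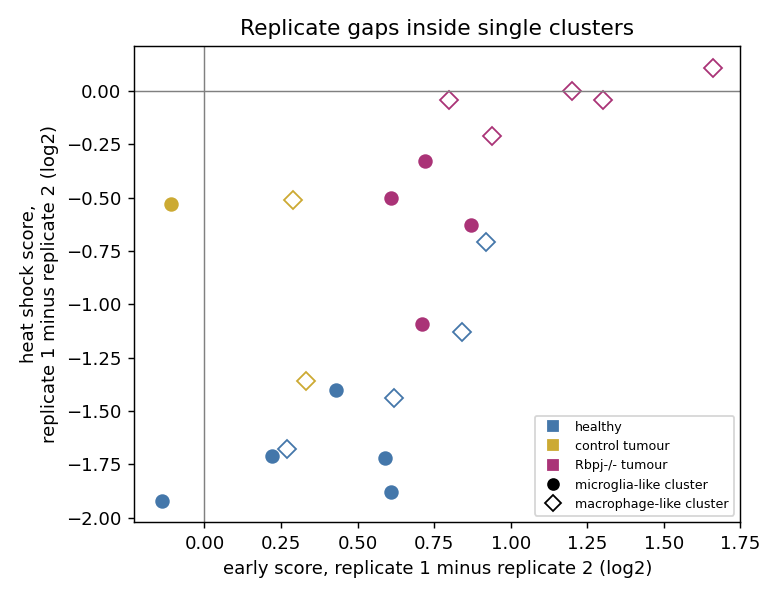
Gap of replicate 1 minus replicate 2 in the early score (horizontal) and the heat shock score (vertical), both log2, for each cluster with at least 20 cells in both libraries of a group; filled circles are microglia-like and open diamonds macrophage-like clusters. Healthy clusters lie below 0 for heat shock genes, between -1.92 and -0.71, and Rbpj-/- clusters lie to the right of 0 for early genes, between 0.61 and 1.66.

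Cell by cell, the early genes took a median of 4.23% of UMIs in healthy 1 and 2.39% in healthy 2 microglia-like cells, 3.43% and 3.24% in control, and 3.01% and 1.49% in Rbpj-/- 1 and 2. The middle of the distribution moved, not only its tail: the 10th percentile was 1.76% in healthy 1 and 1.03% in healthy 2, and the 90th 7.03% and 4.67%. The heat shock genes took a median of 0.363%, 1.08%, 0.801%, 1.32%, 0.541% and 0.789% of UMIs in the same order. Healthy 1 was lowest and control 2 highest. The median mitochondrial share of these cells was 1.46% in healthy 1 and 2.19% to 2.78% in the other 5 libraries, and the median depth 5251 UMIs in healthy 1 and 5376 in Rbpj-/- 2 against 9527 and 9623 in control. Border macrophage markers summed to 658 CPM in Rbpj-/- 2 microglia-like cells, with 10 of 10 detected, and to 51.5 to 82.8 CPM in the other libraries. The part of depth, mitochondrial share and these markers in the library gaps was not tested.

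A list of 40 other early response genes held more calls than the members did in both myeloid classes against healthy. In macrophage-like cells 6 of 36 tested rose in control against healthy and 3 fell, where 4.6% of all genes were called, with a median of 0.74 against -0.02 over all genes. Maff, a small Maf factor, was at 3.20 and 2.26 CPM in healthy 1 and 2, 46.8 and 41.9 CPM in control, and 42.7 and 21.6 CPM in Rbpj-/- tumours, and rose by 3.94 ± 0.41 in control (adjusted p = 0.00181, edgeR). Gadd45b, a stress sensor, was at 32.9 and 41.3 CPM, 635 and 269 CPM, and 425 and 339 CPM, and rose by 3.61 ± 0.45 (adjusted p = 0.00466, edgeR). Bhlhe40 and Dusp4 rose too, and Ccn1, Dusp6 and Cebpd fell. In Rbpj-/- against healthy 6 rose and 2 fell (5.61% of all genes called), and between the tumour groups edgeR called 0 of 36, with 2 at an unadjusted p under 0.05. In microglia-like cells 1 of 35 rose in control, the repressor Bhlhe40 (2.96 ± 0.58, adjusted p = 0.0151, edgeR), from 0.605 and 0.426 CPM to 2.82 and 5.96 CPM. That is near the share of all genes called, 2.89%. In Rbpj-/- against healthy 4 rose, Bhlhe40, Ier5l, Plk3 and Gadd45b, and 3 fell, Dusp6, Rhob and Rgs2, where 10.5% of all genes were called. Dusp6, a phosphatase of ERK, went from 769 and 494 CPM in healthy brain to 264 and 221 CPM, and fell by 1.38 ± 0.24 (adjusted p = 0.00403, edgeR), with control at 330 and 408 CPM.

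Of 37 other cytosolic and mitochondrial chaperones 36 were tested in each of the 2 myeloid classes. In microglia-like cells 2 rose in Rbpj-/- against healthy, Bag1 and Cct2, a smaller share than the 10.5% of all genes called. In control 0 were called by edgeR and 4 had an unadjusted p under 0.05. In macrophage-like cells 1 rose in each contrast with healthy, Hspa2, where 4.6% (control) and 5.61% (Rbpj-/-) of all genes were called. Of 20 genes of the endoplasmic reticulum response 1 rose, Sdf2l1 in Rbpj-/- microglia-like cells, below the 10.5% of all genes called there. Of 19 partners and regulators of AP-1, Egr and Nr4a factors, Nab2, a corepressor of Egr proteins, rose in microglia-like cells of control (1.02 ± 0.22, adjusted p = 0.0252, edgeR) and Rbpj-/- tumours (0.88 ± 0.21, adjusted p = 0.0199). It was at 31.6 and 22.4 CPM in healthy brain, 53.6 and 56.4 CPM in control and 50.8 and 49.0 CPM in Rbpj-/- tumours, with no overlap between healthy and tumour libraries. Batf and Nab1 rose there in Rbpj-/- tumours. Of 18 partners tested in each myeloid class, 1 was called in control microglia-like cells (2.89% of all genes) and 3 in Rbpj-/- (10.5%). In macrophage-like cells Batf3 rose in both tumour groups, Crem in control, and Jdp2, a repressor of AP-1, fell in Rbpj-/- tumours. That made 2 called up in control (4.6% of all genes) and 1 up and 1 down in Rbpj-/- tumours (5.61%). In T-like cells 0 genes of these 4 lists were called by edgeR, with 7 other early response genes, 0 other chaperones, 0 endoplasmic reticulum genes and 1 partner at an unadjusted p under 0.05.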

How the data were processed

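The deposited values were raw UMI counts per gene and cell barcode, and the authors' processing used kallisto 0.46.0 and bustools 0.39.3 on mm10, per the submitters' processing notes, which give no roles. The 36 members and all gene lists were chosen with earlier results of these data known.

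Of 17362 barcodes, 17 were removed for fewer than 500 genes or over 10% mitochondrial counts, 256 as copies of a barcode with over 10 times the counts in another library, and 2605 as mixed (markers of at least 2 lineages, possible doublets, 1644 of them macrophage with T or NK). The 14484 kept were clustered with scanpy 1.11.5 and igraph 0.11.9 (2000 variable genes without the members, 30 components, 20 neighbours, resolution 2, chosen after seeing cluster names). Of 34 clusters, 4 with 1473 cells stayed unnamed. Classes were rebuilt from markers and are called "-like".

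Counts were summed per class and library and tested with edgeR 4.0.16 (quasi-likelihood, filterByExpr, TMM scaling, Benjamini-Hochberg over all genes tested, threshold 0.05) on all 6 libraries with 3 residual degrees of freedom, or on the 4 tumour libraries with 2 for T-like cells. DESeq2 1.42.0 was an alternative, and limma 3.58.1 tested the difference between classes. R 4.3.3, numpy 2.4.6, pandas 2.3.3 and matplotlib 3.10.9 were used. The edgeR and limma steps were tested on simulated data. Genes named were the called members, the 3 most abundant early and heat shock genes of each class, the 2 widest gaps of each kind per class and group (at least 20 CPM in 1 library), Hspa1a and Hspa1b, and up to 4 called genes of each other list. Further members were named after their values were seen. Alternatives covered scaling, filter, pseudocount, clustering, mixed barcodes, cluster subsets, replicate block and each library left out.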

Additional observations from a re-analysis of the deposited data

How the results depend on the processing

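The counts of called members were the values that moved most. With DESeq2 they were 4 and 5 in microglia-like cells (control and Rbpj-/- against healthy), 5 and 5 in macrophage-like cells and 1 in T-like cells, against 0, 2, 3, 3 and 0 with edgeR. With no low-count filter they were 4, 4, 8, 6 and 6, and 1 for Rbpj-/- against control in both myeloid classes. The share of all genes called is not given for these settings or those below. The counts therefore cannot be read as particular to the members. Leaving out 1 library each gave 0 to 7, 1 to 8 and 0 to 5 calls in microglia-like cells (control and Rbpj-/- against healthy, Rbpj-/- against control), 0 to 6, 0 to 4 and 0 in macrophage-like cells and 0 to 4 in T-like cells.

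Library totals with no TMM gave 1 call in T-like cells. Resolution 1.5, chosen after seeing the data, gave 1 and 4 calls in microglia-like cells against healthy, as did keeping mixed barcodes. Without the cluster led by Ccl4, Tnf and Ccl3, Rbpj-/- against healthy gave 5, and the early score difference of control was 0.60. Border clusters alone gave 0 and 1 calls in macrophage-like cells, and -0.98 for the early score between tumour groups. A batch term was fitted for a library split that the sample labels do not name. It set healthy 2 and both Rbpj-/- libraries against healthy 1 and both control libraries. That fit gave 7 and 3 calls in microglia-like cells (control against healthy, Rbpj-/- against control) and 0 for Rbpj-/- against healthy in macrophage-like cells. The term rests on healthy 1 against healthy 2 alone. The tumour groups lie wholly on opposite sides of the split, so their differences cannot be told apart from it.

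Over all genes tested, the deviations of same-numbered libraries had correlations of -0.35 to 0.24, which cannot tell how the libraries were handled. In microglia-like cells 15, 14 and 23 of 23 early genes were higher in replicate 1 in healthy, control and Rbpj-/- cells. Of 13 heat shock genes 12, 12 and 6 were higher in replicate 2. Whether same-numbered libraries were handled together was not tested. With the replicate block the counts of called members were 2, 1 and 0 in microglia-like cells, 2, 2 and 0 in macrophage-like cells and 0 in T-like cells. In T-like cells Ier3 reversed to -0.85 at resolution 1.5 and -0.84 with members among the variable genes, and Zfp36 to -0.24 and Egr1 to -0.96 with mixed barcodes kept. The cause was not tested. Of the remaining settings for single genes, 603 kept direction and side of the threshold, 83 gained a call and 38 lost one. With 2 libraries in a group, depth is not the only limit on these tests.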
